A study of Mus musculus with 6 samples.

Results

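The genes described here control entry into the cell cycle. They are the MYC family of transcription factors (Myc, Mycn, Mycl), the D cyclins (Ccnd1, Ccnd2, Ccnd3), their kinase partner Cdk4, and the CDK inhibitors of the Cip/Kip family (Cdkn1a, Cdkn1b, Cdkn1c). They were taken from the deposited table by gene name, which gave 10 of its 56747 genes. Of these 10, 9 had at least 1 count and 7 had enough counts to be tested. Their response was read from ribosome profiling, in which ribosome-protected mRNA fragments (footprints) are sequenced and counted per gene, so a footprint count reflects both how much mRNA a gene has and how many ribosomes sit on it.

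Primary islets of male C57BL/6J mice aged 6 to 8 weeks were kept for 2 h in 25 mM glucose (high glucose, 3 libraries) or in 2.5 mM glucose (low glucose, 3 libraries). All islets had first been held in medium without glucose, and all received cycloheximide at 100 µg/mL for the last 15 min to hold ribosomes in place. A library used about 500 to 600 islets pooled from several mice, and the islets of each mouse had been divided between the conditions. Totals were 16322162, 16988447 and 20692579 footprints in high glucose, against 9242549, 11524828 and 12175699 in low glucose, so the high glucose libraries were deeper (ratio of medians 1.47). Levels are given in CPM, the count of a gene relative to its library's TMM-scaled total. An islet holds several cell types, and in such whole-islet counts a change in the share of a cell type and a change in RNA per cell cannot be told apart.

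As background, a cell leaves its resting state when D cyclins, made in response to growth signals and nutrients, bind CDK4 or CDK6 and start the phosphorylation of the retinoblastoma protein, which releases E2F factors. The Cip/Kip proteins p21 (Cdkn1a), p27 (Cdkn1b) and p57 (Cdkn1c) restrain CDK complexes, while MYC drives genes of growth and raises several G1 regulators. In mice, cyclin D2 and CDK4 are needed for postnatal growth of beta cell mass, and mice that lack Cdk4 become diabetic.

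Footprints rose on all 3 D cyclins in high glucose, by 15.7% to 39.5%. No call was made for Cdk4, for the inhibitors Cdkn1a and Cdkn1b, or for Myc. Mycn and Mycl were too sparse to test, and Cdkn1c had no footprint in any of the 6 libraries. Thus 3 of the 7 tested members were called in edgeR's quasi-likelihood test (adjusted p under 0.05 over 13100 genes), beside 22.2% of all tested genes. All 3 were higher, where 12.1% of all tested genes were called higher, and 0 members were lower, where 10.2% of all tested genes were. That background balance turned with the scaling (1311 genes higher and 1585 lower with library totals alone), while the D cyclins kept their direction. Ccnd2 was not called under that scaling (edgeR adjusted p 0.081) and was called in 10 of 15 alternative settings. DESeq2 and limma-voom also called 0 members lower, and 1 member, Myc, had an unadjusted p under 0.05 in that direction.

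The promoter of Cdk4 is shown because it holds the motif that MYC is known to bind. MYC binds the E-box CACGTG with its partner MAX, and Cdk4 is a known MYC target. Promoter windows were taken from a RefSeq table (build GRCm38.p6, 250 bases before each annotated start) that covered 6 of the 10 members in 8 windows, and those of Myc, Ccnd1, Ccnd2 and Cdkn1c were not analysed here. The E-box, which reads the same on both strands, was found, among these 8 windows, in that of Cdk4 alone, at chr10:127063285-127063534 on the plus strand, printed here 5′ to 3′ with the E-boxes in capitals.
Cdk4: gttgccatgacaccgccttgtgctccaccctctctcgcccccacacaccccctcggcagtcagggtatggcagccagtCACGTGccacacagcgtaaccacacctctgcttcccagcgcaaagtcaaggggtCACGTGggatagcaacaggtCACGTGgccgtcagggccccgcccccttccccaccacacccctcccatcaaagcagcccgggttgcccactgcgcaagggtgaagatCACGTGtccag
This window held 4 E-boxes, which began 172, 118, 98 and 11 bases before the start. Of 32851 promoter windows of this length, 6.021% held at least 1 E-box and 0.0213% (7 windows) held at least 4. The first of 2 Ccnd3 windows, at chr17:47504801-47505050 on the plus strand, is set beside it, as Ccnd3 had the largest rise among the members. It held 0 E-boxes and 2 GC boxes (GGGCGG on either strand, in capitals), a motif found in 32.742% of all windows.
Ccnd3: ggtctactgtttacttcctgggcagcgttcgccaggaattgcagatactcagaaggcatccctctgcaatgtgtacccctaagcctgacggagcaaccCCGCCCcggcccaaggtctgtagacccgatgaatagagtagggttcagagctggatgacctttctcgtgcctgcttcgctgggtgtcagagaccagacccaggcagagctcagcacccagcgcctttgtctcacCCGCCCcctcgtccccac
The GC boxes of this Ccnd3 window began 152 and 18 bases before the start. The Cdk4 window also held 1 GC box, 80 bases before the start and left in lower case. A window each of Mycn, Mycl, Cdkn1a and Cdkn1b held 1 or 2, so this motif does not set Ccnd3 apart. These matches describe the letters of the windows, and no protein binding was measured in these libraries.

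Cyclin D1 (Ccnd1, ENSMUSG00000070348, chromosome 7, minus strand) is the D cyclin most closely tied to mitogen signalling. Its footprints stood at 238, 247 and 244 CPM in the 3 high glucose libraries, against 195, 188 and 205 CPM in the 3 low glucose libraries. Every high glucose library lay above every low glucose library, with a gap wider than the spread within either condition. Ccnd1 averaged 243 ± 4.42 CPM in high glucose and 196 ± 8.54 CPM in low glucose (SD, n = 3 each). The log2 fold change was 0.31 ± 0.068 (SE; 95% interval 0.17 to 0.45), and the edgeR adjusted p was 0.0017.

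Cyclin D2 (Ccnd2, ENSMUSG00000000184, chromosome 6, minus strand) had the most counts of the members, not scaled by length, at rank 209 of all genes in the table. It is the D cyclin on which mouse beta cells depend most for growth after birth. Its footprints were 514, 596 and 537 CPM in high glucose, against 429, 489 and 506 CPM in low glucose. The conditions did not overlap, but the lowest high glucose library lay just above the highest low glucose library. Means were 549 ± 41.9 CPM in high glucose and 474 ± 40.5 CPM in low glucose (SD, n = 3 each). The log2 fold change was 0.21 ± 0.067 (SE; 95% interval 0.072 to 0.35), with an edgeR adjusted p of 0.025. This call rested on single libraries and on the scaling, and it was not made without high glucose replicate 2 (0.15, adjusted p 0.19), high glucose replicate 3 (0.23, adjusted p 0.052) or low glucose replicate 1 (0.14, adjusted p 0.092). It was also not made with upper-quartile factors (0.17, adjusted p 0.081) or library totals alone (0.16, adjusted p 0.081).

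Cyclin D3 (Ccnd3, ENSMUSG00000034165, chromosome 17, plus strand) is the D cyclin most often found in differentiated tissues. It had the fewest counts of the D cyclins, not scaled by length, and the largest fitted rise of the members. Footprints were 71.0, 77.8 and 67.7 CPM in high glucose, against 50.9, 49.7 and 54.6 CPM in low glucose. Here too the conditions were fully apart. The means were 72.2 ± 5.14 CPM in high glucose and 51.7 ± 2.57 CPM in low glucose (SD, n = 3 each). The log2 fold change of 0.48 ± 0.11 (SE; 95% interval 0.26 to 0.70) had an edgeR adjusted p of 0.0021 and stood at percentile 85.8 of all tested genes, while Ccnd1 stood at percentile 76.3 and Ccnd2 at percentile 69.1.

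These were modest changes. The middle 50% of all tested genes ran in log2 fold change from -0.36 to 0.29, so the value of Ccnd2 lay within that range and the values of Ccnd1 and Ccnd3 above it. Between libraries the tested members had an estimated biological coefficient of variation of 0.068 to 0.128, beside a median of 0.178 over all tested genes. This comparison is not matched by count, and the tested members ranked 209 to 4398 of all genes by counts. Pathway genes of similar mean count differed among themselves. Beside Cdkn1a (0.0795), Pa2g4 was at 0.0845 and Men1 at 0.137. Beside Myc (0.128), Mxd4 was at 0.127 and Wdr5 at 0.153. Conditions did not overlap for 3 of the 7 tested members, the D cyclins, as was the case for 37.5% of all tested genes.

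**Figure D1:**
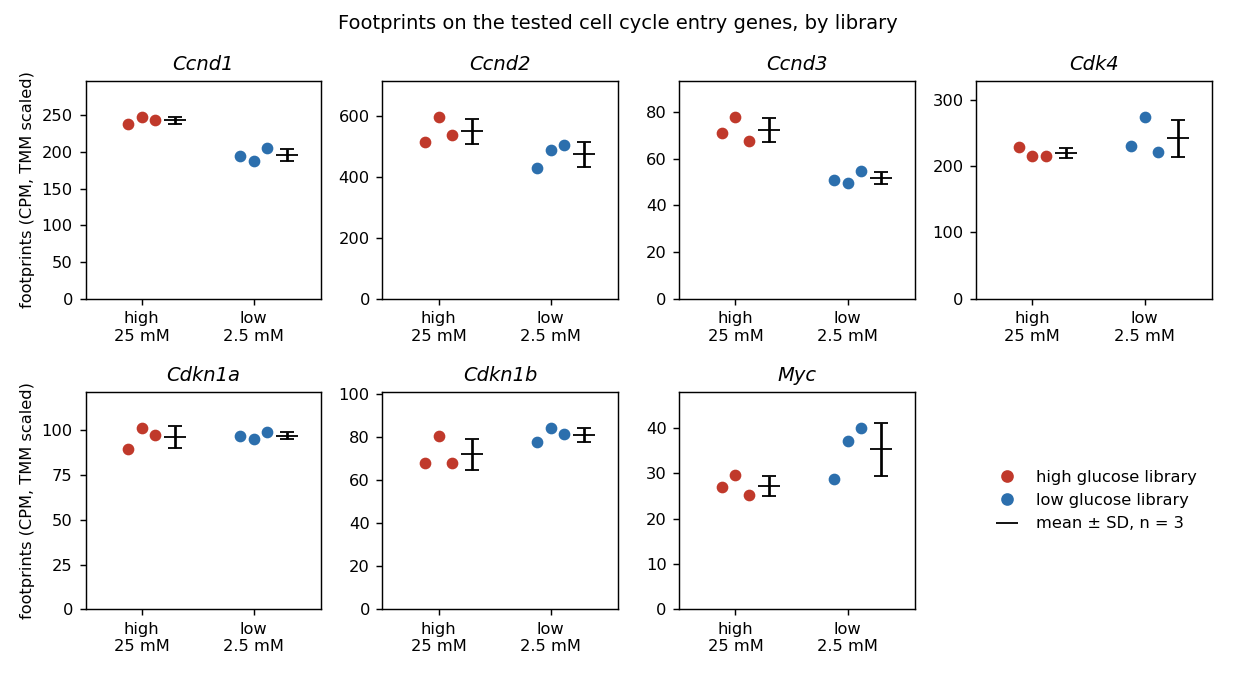
Footprints (TMM-scaled CPM, y axis from 0) of the 7 tested members in each of the 3 high glucose (25 mM, red) and 3 low glucose (2.5 mM, blue) libraries, with mean ± SD. The high glucose points of Ccnd1, Ccnd2 and Ccnd3 all lie above the low glucose points, and the points of Cdk4, Cdkn1a, Cdkn1b and Myc overlap.

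Cdk4 (ENSMUSG00000006728, chromosome 10, plus strand), the kinase that the D cyclins activate, had 229, 216 and 216 CPM in high glucose, against 231, 274 and 222 CPM in low glucose. The high glucose libraries lay close together, and the low glucose spread came mainly from replicate 2. Means were 220 ± 7.80 CPM in high glucose and 242 ± 27.9 CPM in low glucose (SD, n = 3 each). With a log2 fold change of -0.14 ± 0.077 (SE; 95% interval -0.30 to 0.024) and an edgeR adjusted p of 0.23, no difference was called. The interval leaves out a rise as large as that fitted for any of the D cyclins.

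Among the inhibitors, Cdkn1a (ENSMUSG00000023067, chromosome 17, plus strand) encodes p21, a p53 target that blocks cyclin-CDK complexes after damage or stress. It had 89.4, 101 and 97.6 CPM in high glucose, against 96.9, 95.02 and 98.9 CPM in low glucose. The low glucose libraries lay inside the high glucose range. The fitted log2 fold change was -0.012 ± 0.089 (SE; 95% interval -0.20 to 0.17), with an edgeR adjusted p of 0.94. Its sign turned with the filter on low counts and with single libraries, so no direction can be given.

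Cdkn1b (ENSMUSG00000003031, chromosome 6, plus strand) encodes p27, which accumulates in resting cells and is removed by the ubiquitin ligase SCF-SKP2. It had 68.0, 80.5 and 67.9 CPM in high glucose, against 77.7, 84.4 and 81.6 CPM in low glucose. A pair of the high glucose libraries lay under all low glucose libraries and replicate 2 lay among them. The log2 fold change was -0.17 ± 0.10 (SE; 95% interval -0.38 to 0.038), and the edgeR adjusted p was 0.25.

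Cdkn1c (ENSMUSG00000037664, chromosome 7, minus strand) encodes p57, an imprinted inhibitor whose loss in human islets goes with focal hyperinsulinism. It had 0 counts in each of the 6 libraries. A count of 0 allows up to 0.0566 CPM over the pooled high glucose libraries and up to 0.0898 CPM over the pooled low glucose libraries (3 counts of the summed total, counting error only). These limits hold only if its reads could be mapped and counted, and whether the 0 counts come from the level of the gene or from mapping or annotation was not tested.

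Myc (ENSMUSG00000022346, chromosome 15, plus strand) encodes an unstable transcription factor whose mRNA and protein turn over within minutes to hours. Its footprints were 27.0, 29.6 and 25.2 CPM in high glucose, against 28.7, 37.0 and 40.0 CPM in low glucose. Low glucose replicate 1 lay within the high glucose range, and the other low glucose libraries lay above it. Means were 27.3 ± 2.20 CPM in high glucose and 35.2 ± 5.84 CPM in low glucose (SD, n = 3 each). The log2 fold change was -0.37 ± 0.15 (SE; 95% interval -0.70 to -0.053), at percentile 24.1 of all tested genes. The edgeR p was 0.024 unadjusted and 0.089 adjusted over all genes, so Myc was not called. It was called lower without low glucose replicate 1 (-0.51, adjusted p 0.022).

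The paralogs of Myc were close to the limit of detection. Mycn (ENSMUSG00000037169, chromosome 12), which acts mainly in embryonic and neural tissue, had 8, 0 and 5 counts in high glucose, against 9, 21 and 0 counts in low glucose. Pooled, this was 0.245 CPM in high glucose (exact Poisson 95% interval 0.131 to 0.419) and 0.898 CPM in low glucose (0.606 to 1.28). These intervals cover counting error only, and 21 of the 30 low glucose counts came from a single library. Mycl (ENSMUSG00000028654, chromosome 4) had 7, 7 and 22 counts in high glucose, against 0, 8 and 9 counts in low glucose. Its pooled levels were 0.679 CPM in high glucose (0.476 to 0.940) and 0.509 CPM in low glucose (0.296 to 0.815), intervals that overlap. Myc was thus the family member with nearly all of the footprints.

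**Figure D2:**
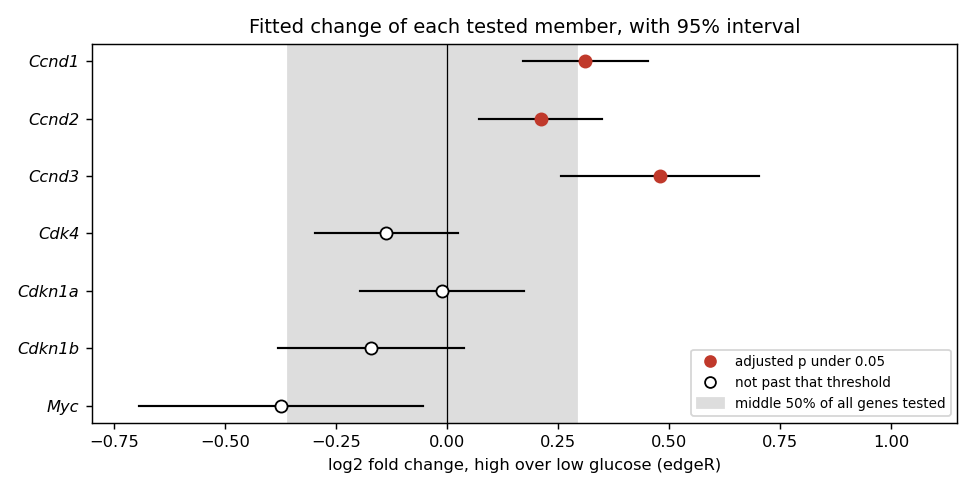
Fitted log2 fold change, high over low glucose (x axis), of the 7 tested members with its 95% interval; filled points passed an adjusted p under 0.05 in edgeR, and the grey band is the middle 50% of all tested genes (-0.36 to 0.29). The D cyclins lie to the right of 0 with intervals that leave out 0. The interval of Myc lies to the left of 0 and also leaves it out, but Myc was not called after adjustment. Cdk4, Cdkn1a and Cdkn1b have intervals that cover 0 and were not called.

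How far the members' values depend on the processing was read over 15 alternative settings. Ccnd1 and Ccnd3 were called higher in 15 of 15, Ccnd2 in 10 of 15, and Myc was called lower in 2 of 15. Cdk4, Cdkn1a and Cdkn1b were called in 0 of 15.

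**Figure D3:**
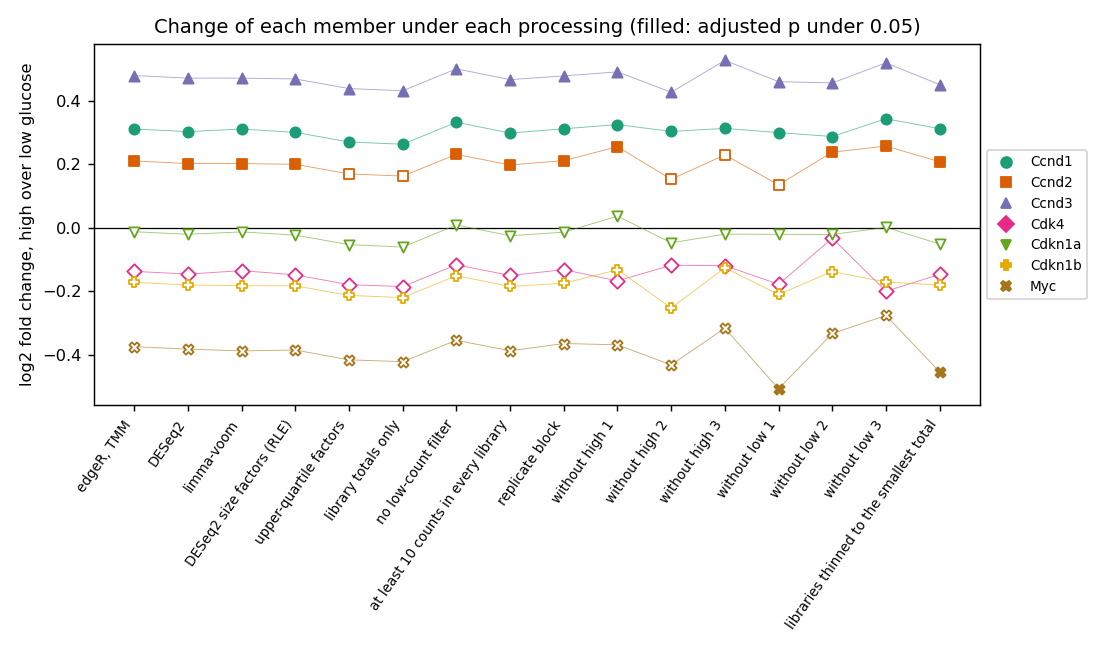
Fitted log2 fold change, high over low glucose (y axis), of each tested member with TMM scaling (left) and under each of 15 alternative settings (x axis); filled symbols have an adjusted p under 0.05. The D cyclins stay above 0 and Cdk4, Cdkn1b and Myc below it in every setting, and Cdkn1a crosses 0.

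To set levels of different genes side by side, CPM was divided by the gene length in the table in kb, which spans all annotated exons and so weighs long untranslated parts as well. On this scale Cdk4 had the highest level, 67.8 ± 2.40 CPM per kb in high glucose and 74.5 ± 8.60 in low glucose (SD, n = 3 each). Ccnd2 followed at 58.4 ± 4.45 CPM per kb in high glucose and 50.4 ± 4.31 in low glucose, and Ccnd1 at 51.6 ± 0.939 CPM per kb in high glucose and 41.6 ± 1.81 in low glucose. The inhibitors came next. Cdkn1a had 27.1 ± 1.72 CPM per kb in high glucose and 27.3 ± 0.554 in low glucose, and Cdkn1b had 15.8 ± 1.58 CPM per kb in high glucose and 17.8 ± 0.738 in low glucose. Myc, at 10.03 ± 0.808 CPM per kb in high glucose and 13.0 ± 2.15 in low glucose, lay above Ccnd3, at 8.22 ± 0.585 CPM per kb in high glucose and 5.89 ± 0.293 in low glucose. This order was the same in both conditions, and within each condition no neighbours among these 7 overlapped over the 3 libraries. The order depends on the divisor, and coding length was not used. By CPM alone, Ccnd2 (549 in high and 474 in low glucose) lay above Cdk4 (220 and 242). Likewise Ccnd3 (72.2 and 51.7 CPM) lay above Myc (27.3 and 35.2 CPM). Mycl and Mycn lay far below at under 1 CPM per kb, and their libraries overlapped.

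The balance of D cyclins to their inhibitors was read within each library, where library size cancels, as a description with no test. These ratios are of counts not scaled by length unless stated. The summed D cyclin footprints were 5.23, 5.06 and 5.13 times the summed Cdkn1a and Cdkn1b footprints in high glucose, against 3.86, 4.05 and 4.24 times in low glucose. The conditions were apart, at 5.14 ± 0.0846 in high glucose and 4.05 ± 0.188 in low glucose (SD, n = 3 each), a ratio of 1.27, and the ratio was also 1.27 when each gene was first divided by its length. Relative to their kinase, the D cyclins stood at 3.59, 4.27 and 3.93 times the Cdk4 footprints in high glucose, against 2.92, 2.65 and 3.45 times in low glucose, again without overlap (ratio of means 1.31). The inhibitors relative to Cdk4 overlapped, at 0.687, 0.843 and 0.767 in high glucose, against 0.757, 0.655 and 0.815 in low glucose.

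Within the D cyclins the make-up shifted slightly toward Ccnd3. Ccnd3 held 8.35 ± 0.330% of D cyclin footprints in high glucose and 7.17 ± 0.355% in low glucose (SD, n = 3 each), and the libraries did not overlap. Ccnd2 held 63.5 ± 1.14% in high glucose and 65.6 ± 1.91% in low glucose, and Ccnd1 held 28.2 ± 1.145% in high glucose and 27.2 ± 1.56% in low glucose, both with overlap. Myc footprints came to 3.28, 3.21 and 2.97% of those of the D cyclins in high glucose, against 4.26, 5.10 and 5.22% in low glucose, so that this share was lower in every high glucose library. Cdkn1a over Cdkn1b was 1.31, 1.26 and 1.44 in high glucose, against 1.25, 1.13 and 1.21 in low glucose, with no overlap but a narrow gap.

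**Figure D4:**
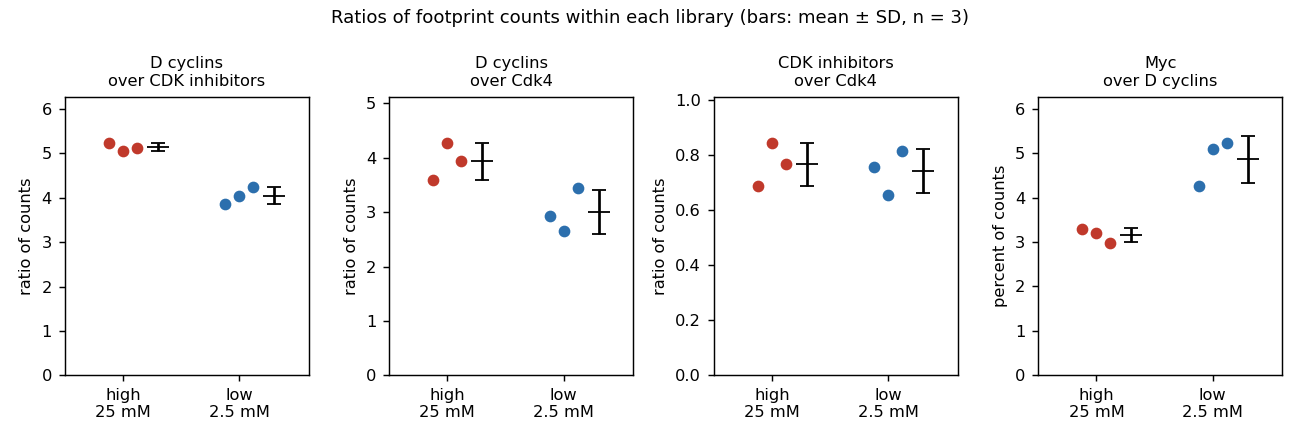
Ratios of summed footprint counts within each library (y axes from 0; Myc over D cyclins in percent) for the 3 high glucose (red) and 3 low glucose (blue) libraries, with mean ± SD. D cyclins over CDK inhibitors and over Cdk4 are higher in every high glucose library, CDK inhibitors over Cdk4 overlap, and Myc over D cyclins is lower in every high glucose library.

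Some members share genomic sequence with another gene. The counts are not stated to use strand, so reads of a gene on the opposite strand could enter a member's count. Ccnd3 overlaps Bysl (1649 counts in all, log2 fold change 0.53, edgeR adjusted p 0.052), whose fitted change ran the same way. Cdk4 overlaps Tspan31 (10135 counts, log2 fold change 0.10, adjusted p 0.45), and Ccnd1 overlaps LTO1 (574 counts, log2 fold change 0.028, adjusted p 0.96). Ccnd2 and Cdkn1a overlap genes with at most 28 counts, and the processed pseudogene Ccnd3-ps had 1 count. The part of these neighbours in the members' values was not tested.

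The genes whose pattern over the 6 libraries was most like that of the leading member of each family were ranked by the root mean square difference of centred log2 CPM, over the 8701 genes that averaged 100 counts or more. For Ccnd2 these were Casz1 (0.0203), Mxd1 (0.0232) and Tead1 (0.0373). Mxd1, a MAX partner that represses E-box genes, is also on the MYC network list described next. For Myc they were Plekhm2 (0.0356), Pus7l (0.0540) and Khdrbs3 (0.0544), and for Cdkn1a they were Vps11 (0.0303), Clcn4 (0.0304) and Ap2m1 (0.0326). These are distances over 6 libraries that share the contrast, given with no test.

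The rest of the pathway was read from 7 lists with 188 names, of which 172 genes were tested. Of these, 19 (11.05%) were called higher and 24 (14.0%) lower, beside 12.1% and 10.2% of all tested genes, and their median log2 fold change was 0.0023, beside -0.012 over all tested genes. The lists together thus moved about as often as other genes.

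Of the 28 tested G1 entry partners (E-type cyclins, other CDKs, INK4 inhibitors, the RB family and E2F factors), 1 was called higher and 3 lower in edgeR. The count of higher genes was 3 with limma-voom, with no filter on low counts, with at least 10 counts in every library and with the replicate block, and 2 without low glucose replicate 1 or 3 and with thinned libraries. E2f4, an E2F that binds with the RB family in resting cells, rose to 58.8 ± 2.54 CPM in high glucose, against 37.3 ± 3.09 CPM in low glucose (SD, n = 3 each; log2 fold change 0.66, adjusted p 2.8e-04). Tfdp2, a dimer partner of E2Fs, fell to 4.44 CPM in high glucose, against 11.9 CPM in low glucose (log2 fold change -1.43, adjusted p 0.0017). Cdkn2b, which encodes the CDK4 and CDK6 inhibitor p15, fell to 4.38 CPM in high glucose, against 9.31 CPM in low glucose (log2 fold change -1.09, adjusted p 0.026), and the repressor E2f7 fell by 2.35 on the log2 scale (adjusted p 0.0025). The substrate Rb1 (0.35, adjusted p 0.072), cyclin E1 (Ccne1, 0.96, adjusted p 0.17) and Cdk2 (-0.31, adjusted p 0.59) were not called.

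Of the 21 tested genes that degrade cyclins, MYC and inhibitors, 4 were called higher and 3 lower. Over the alternatives the counts were 3 or 4 higher and 2 or 3 lower, such as 3 and 2 with DESeq2. The kinase gene Gsk3a, whose product marks D cyclins and MYC for destruction, was higher (log2 fold change 0.88, edgeR adjusted p 8.6e-05). Its paralog Gsk3b was lower (-0.31, adjusted p 0.049), just under the threshold. Within cullin ligases, Ddb1 (0.33, adjusted p 1.2e-04) and Cul1 (0.42, adjusted p 0.0022) rose and the RING subunit Rbx1 fell by 1.03 (adjusted p 0.0023). Rnf123, part of a ligase for p27, fell by 0.70 (adjusted p 0.0012). Fbxw7, the F-box protein that binds MYC, was at -0.29 (adjusted p 0.22), and Skp2, that for p27, was at 0.25 (adjusted p 0.85), and neither was called. The called genes of this list thus went both ways.

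Of 22 tested genes of the MYC network, 3 were called higher and 4 lower. Without high glucose replicate 1 or 3 only 1 was higher, and without low glucose replicate 3 only 2 were lower. The higher ones were Hcfc1 (log2 fold change 0.51, adjusted p 4.6e-04), a chromatin cofactor of MYC, Mlxipl (0.33, adjusted p 0.017), the glucose-sensing factor ChREBP of the same family of E-box binders, and Trrap (0.25, adjusted p 0.033), a histone acetyltransferase scaffold. Lower were Ptma (-0.80, adjusted p 1.6e-07), Pim3 (-0.76, adjusted p 1.1e-04), a kinase that acts with MYC, and Zbtb17 (-0.78, adjusted p 0.012), the partner through which MYC represses Cdkn1a and Cdkn2b. The obligate partner Max was at -0.41 (adjusted p 0.16) and was not called.

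Of 26 tested MYC target genes, 6 were called higher and 3 lower, at a median log2 fold change of 0.046. With library totals alone the counts were 3 higher and 3 lower, and without high glucose replicate 2 they were 3 higher and 2 lower. Cad, the first enzyme of pyrimidine synthesis, had 434 ± 21.2 CPM in high glucose and 329 ± 15.0 CPM in low glucose (SD, n = 3 each; log2 fold change 0.40, adjusted p 4.8e-05). The transferrin receptor Tfrc (0.27, adjusted p 0.0017) and the RNA polymerase I subunit Polr1b (0.47, adjusted p 0.0040) were also higher. Hspe1, a mitochondrial chaperonin, fell by 0.67 (adjusted p 7.9e-09), its partner Hspd1 fell by 0.21 (adjusted p 0.024) and the cap-binding factor Eif4e fell by 0.62 (adjusted p 0.0025). Nucleolin (Ncl, 0.032, adjusted p 0.76) and ornithine decarboxylase (Odc1, 0.13, adjusted p 0.57), often used as readouts of MYC, were not called.

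Of 24 tested genes of the p53 response, to which Cdkn1a belongs, 2 were called higher and 5 lower. Without high glucose replicate 1 these counts were 1 and 3, and 1 was also called higher without high glucose replicate 2 or 3, without low glucose replicate 3 and with library totals alone. Plk3, a stress-responsive kinase, fell to 67.2 ± 1.78 CPM in high glucose, against 150 ± 6.86 CPM in low glucose (SD, n = 3 each; log2 fold change -1.16, adjusted p 1.2e-09). Gadd45a, a growth arrest gene, fell to 7.11 ± 0.710 CPM in high glucose, against 23.4 ± 3.09 CPM in low glucose (log2 fold change -1.72, adjusted p 2.5e-06). Trp53 itself fell to 46.8 ± 5.38 CPM in high glucose, against 90.1 ± 26.4 CPM in low glucose (log2 fold change -0.94, adjusted p 5.8e-05). Its low glucose spread came mainly from replicate 1, at 121 CPM beside 74.3 and 75.5 CPM. Tigar, which lowers glycolytic flux, rose by 1.33 (adjusted p 5.3e-06) and Bax, a pro-death effector, by 0.26 (adjusted p 0.017). Cdkn1a, at -0.012, and the p53 ligase Mdm2, at -0.079 (adjusted p 0.76), were not among the called genes.

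Of 26 tested genes of S phase and mitosis, 0 were called in either direction by edgeR, beside 22.2% of all tested genes. DESeq2 and limma-voom also called 0. Without adjustment 3 had an edgeR p under 0.05 (2 higher and 1 lower), namely Pcna, Rrm2 and Cenpf. A filter of at least 10 counts in every library gave 1 called lower. Footprints on these genes were few, with Mki67 at 4.12 ± 1.495 CPM in high glucose and 3.88 ± 1.32 CPM in low glucose, and Top2a at 16.7 ± 1.82 CPM in high glucose and 16.6 ± 3.97 CPM in low glucose (SD, n = 3 each).

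Of 25 tested regulators of the members, 3 were called higher and 6 lower. Without low glucose replicate 1 or 2 the higher count was 5, and without high glucose replicate 1 it was 4, with 4 lower. Men1, whose product menin maintains p27 and p18 transcription in endocrine cells, fell to 57.4 ± 7.53 CPM in high glucose, against 178 ± 64.3 CPM in low glucose (SD, n = 3 each; log2 fold change -1.62, edgeR adjusted p 1.2e-07). Ddit3, a stress factor, fell by 3.17 (adjusted p 9.3e-07) and Smad4, which carries TGF-beta signals to the inhibitors, by 0.57 (adjusted p 3.1e-04). The immediate early gene Nr4a1 rose by 5.85 (adjusted p 2.2e-17), the prolactin receptor Prlr by 0.53 (adjusted p 2.9e-04) and Akt1, a kinase that restrains GSK3 and p27, by 0.47 (adjusted p 0.0013).

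**Figure D5:**
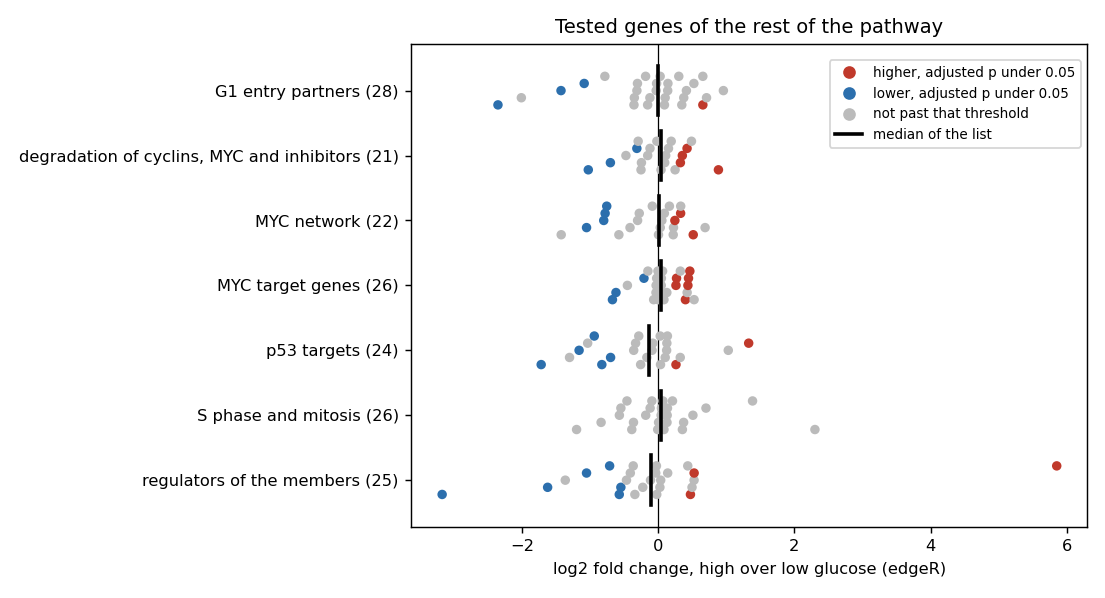
Fitted log2 fold changes, high over low glucose (x axis), of the tested genes of 7 pathway lists (number tested in brackets); red points were called higher and blue points lower in edgeR, grey points were not called, and black lines mark list medians. List medians lie between -0.13 and 0.046, 0 genes of S phase and mitosis are coloured, and the point far to the right is Nr4a1 at 5.85.

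Cell type markers moved with the conditions. Beta cell markers summed to 161362 to 176441 CPM in high glucose and 131907 to 147986 CPM in low glucose (7 higher and 2 lower of 10 tested). Alpha cell markers summed to 47243 to 50849 CPM in high glucose and 58890 to 62645 CPM in low glucose (0 higher and 4 lower of 7), and acinar markers to 375 to 405 CPM in high glucose and 891 to 952 CPM in low glucose (0 higher and 17 lower of 19, with Ctrc, Amy2a5 and Ptf1a at 0). Delta cell markers summed to 4990 to 5076 CPM in high glucose and 6476 to 7086 CPM in low glucose (0 higher and 2 lower of 4), and 1 of 2 PP cell markers was lower. Duct markers summed to 1815 to 1930 CPM in high glucose and 1561 to 1602 CPM in low glucose (2 higher and 0 lower of 6). The remaining lists were smaller. Endothelial markers summed to 281 to 292 CPM in high glucose and 401 to 409 CPM in low glucose (0 higher and 4 lower of 10), stellate and pericyte markers to 101 to 117 CPM in high glucose and 148 to 161 CPM in low glucose (0 higher and 3 lower of 9), and immune markers to 185 to 195 CPM in high glucose and 283 to 308 CPM in low glucose (0 higher and 3 lower of 10). The part of these marker shifts in the members' values was not tested.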

How the data were processed

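The authors removed rRNA and tRNA reads, mapped footprints with TopHat2 (version 2.0.12) and counted them per gene with HTSeq (version 0.9.1), and the deposited values are whole-number counts with no depth scaling. The study itself compared conditions with DESeq2 (version 1.14.1). The processing notes name mm10, but start and end in the table are not on that build, so positions are given only for RefSeq promoters (GRCm38.p6). Whether counting used strand is not given in the sources used here.

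The tests used edgeR 4.0.16 under R 4.3.3. Genes were filtered by filterByExpr, which left 13100 of 27945 genes with a count, libraries were scaled by TMM (factors 0.980 to 1.02), and high was compared with low glucose by the quasi-likelihood F test with Benjamini-Hochberg adjustment over all tested genes. The test pools the spread over genes (17.6 prior and 4 residual degrees of freedom) and was tested on simulated data. P-values measure the spread between these 3 pools per condition. Libraries of a condition differed by more than sampling noise, so none is a copy of another. The members and gene lists were chosen with earlier results of these data known. All 10 members are described. Of each pathway list the up to 3 higher and 3 lower genes with the smallest adjusted p are named, and uncalled genes of the lists were named after their values were seen. The alternatives were DESeq2 (version 1.42.0), limma-voom (version 3.58.1), other scaling factors, other filters and a replicate block. Others were leaving out each library, libraries thinned to the smallest total, the fold rule of the study on the edgeR fit, and ratios per kb.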

Additional observations from a re-analysis of the deposited data

How the results depend on the processing

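Each of the 7 tested members was refitted under 15 alternatives. Ccnd1 (log2 fold change 0.26 to 0.34) and Ccnd3 (0.43 to 0.53) were called in 15 of 15, and Cdk4 (-0.20 to -0.033) and Cdkn1b (-0.25 to -0.13) in 0 of 15. Ccnd2 kept its direction and was called in 10 of 15. It was not called with upper-quartile factors (0.17, adjusted p 0.081) or library totals alone (0.16, adjusted p 0.081), and leaving out single libraries gave 0.14 to 0.26. Cdkn1a was never called and its sign turned with no filter on low counts (0.0092), while leaving out single libraries gave -0.047 to 0.037. Myc was called lower with libraries thinned to the smallest total (-0.45, adjusted p 0.045), an alternative chosen after seeing the data, and without low glucose replicate 1, and leaving out single libraries gave -0.51 to -0.28. In both settings 1 member was called lower, and leaving out single libraries gave 0 to 1. The rule of the study was a fold above 1.5 with an unadjusted p under 0.05. It was applied here to the edgeR fit, so the counts are not those of the study's own DESeq2 fit. This gave 865 genes higher, against 1579 with the adjusted p, and 1124 lower, against 1333. By this rule 0 members were higher, since the fitted fold of each of the 7 tested members was under 1.5. With upper-quartile factors 1349 genes were higher and 1545 lower, and with library totals alone 1311 were higher and 1585 lower, so the larger side turned. The cause of the other shifts was not tested.

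With the replicate block, Ccnd1 was at 0.31 (adjusted p 0.0023), Ccnd2 at 0.21 (adjusted p 0.0096), Ccnd3 at 0.48 (adjusted p 0.0038) and Myc at -0.36 (adjusted p 0.11), with 3 members higher and 0 lower. The block changed no member's call and gave 1561 genes higher and 1308 lower. Deviations from the condition means correlated at 0.0068 to 0.011 between libraries of the same number and at -0.0085 to 0.00089 between others. All were under 0.1, so the numbers were not taken as pairs, although each library's highest value was with its own number. These low values do not exclude a pairing, as the islets of each mouse had been divided between the conditions. Whether same-numbered pools share mice is not given in the sources used here.

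The fold of D cyclins over CDK inhibitors ran from 1.24 to 1.30 and that over Cdk4 from 1.23 to 1.41 with single libraries left out. Ratios per coding length were not run, and the gene length of the table was used instead. With 3 libraries per condition and 1.47 times deeper high glucose libraries, Mycn and Mycl had too few counts for the test, and what limits Cdkn1c was not tested.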
